A study of Mus musculus with 16 samples.

Results

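RNA-seq levels of 9 genes of axon regeneration were followed in primary neuronal cultures (PNCs) of mouse cortex exposed to oxygen-glucose deprivation (OGD), an in vitro model of ischemia, with or without the antidepressant tianeptine (TIA). The genes were chosen by symbol, as *Gap43*, *Sprr1a*, *Gal*, *Sox11*, *Klf2*, *Klf4*, *Klf6*, *Klf7* and *Klf9*, which are 9 of the 53679 gene symbols and 16 of the 135202 isoforms of the table. Each culture was wild type, was prepared from cortex at embryonic day 15, and received 10 μM TIA or vehicle (DMSO) at 8 days in vitro (DIV). At 9 DIV, 24 h after this pretreatment, cultures underwent OGD for 3 h or a sham exposure (CONTROL), and RNA was taken after 6 h of reoxygenation. The 16 cultures formed 4 groups of 4, CONTROL-VEH (cultures 1 to 4, which the labels call untreated), CONTROL-TIA (5 to 8), OGD-VEH (9 to 12) and OGD-TIA (13 to 16). The methods call the cultures of a group biological replicates without saying which came from separate dissections, and the p-values measure the spread between these cultures.

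Neurons that can regrow a cut axon, such as those of peripheral ganglia, switch on a program of growth-associated genes after injury, whereas mature neurons of the brain do so weakly. *Gap43* encodes a membrane protein of growth cones, *Sprr1a* a small proline-rich protein that is almost absent from uninjured neurons, *Gal* the neuropeptide galanin, and *Sox11* a transcription factor of developing and injured neurons. The Krüppel-like factors (KLFs) are zinc finger transcription factors that act on axon growth in opposite directions, *Klf6* and *Klf7* promoting it and *Klf4* and *Klf9* limiting it, while *Klf2* is best known from endothelium and quiescent lymphocytes.

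Levels are given as FPKM (fragments per kilobase of isoform, scaled to the mapped reads of the library), with the isoforms of a gene summed, so that they can be compared between genes per length. Over the 16 cultures, *Gap43* had a mean of 1029 FPKM and ranked 130 among 16313 genes whose mean reached 0.5 FPKM. *Sox11* followed at 61.0 FPKM, *Klf6* at 39.2 FPKM and *Klf7* at 37.9 FPKM, and *Klf9* was lower at 6.45 FPKM. The remaining genes had the lowest levels, with *Gal* at 1.36 FPKM, *Klf4* at 1.26 FPKM, *Klf2* at 0.697 FPKM and *Sprr1a* at 0.692 FPKM. In this order the ranges of *Klf6* (29.3 to 49.6 FPKM) and *Klf7* (19.9 to 55.8 FPKM) overlapped, that of *Sox11* (from 52.6 FPKM) overlapped *Klf7*, and those of the 4 lowest genes overlapped, whereas the lowest culture for *Gap43* (400 FPKM) stood above the highest for *Sox11* (66.8 FPKM). The depth, estimated from the step that 1 read makes in the values, was 19.7 to 24.7 M reads per culture, and 1 read on a transcript of 1 kilobase corresponded to 0.0405 to 0.0509 FPKM. The 5 neuron markers summed to 616 to 1179 FPKM in the 16 cultures and the 5 astrocyte markers to 354 to 1466 FPKM, whereas those of microglia reached at most 2.93 FPKM (1 of 5 at 0 in each CONTROL-TIA culture) and those of endothelium at most 1.37 FPKM (2 of 5 at 0 in each OGD-VEH culture and 1 in each OGD-TIA culture).

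**Figure D1:**
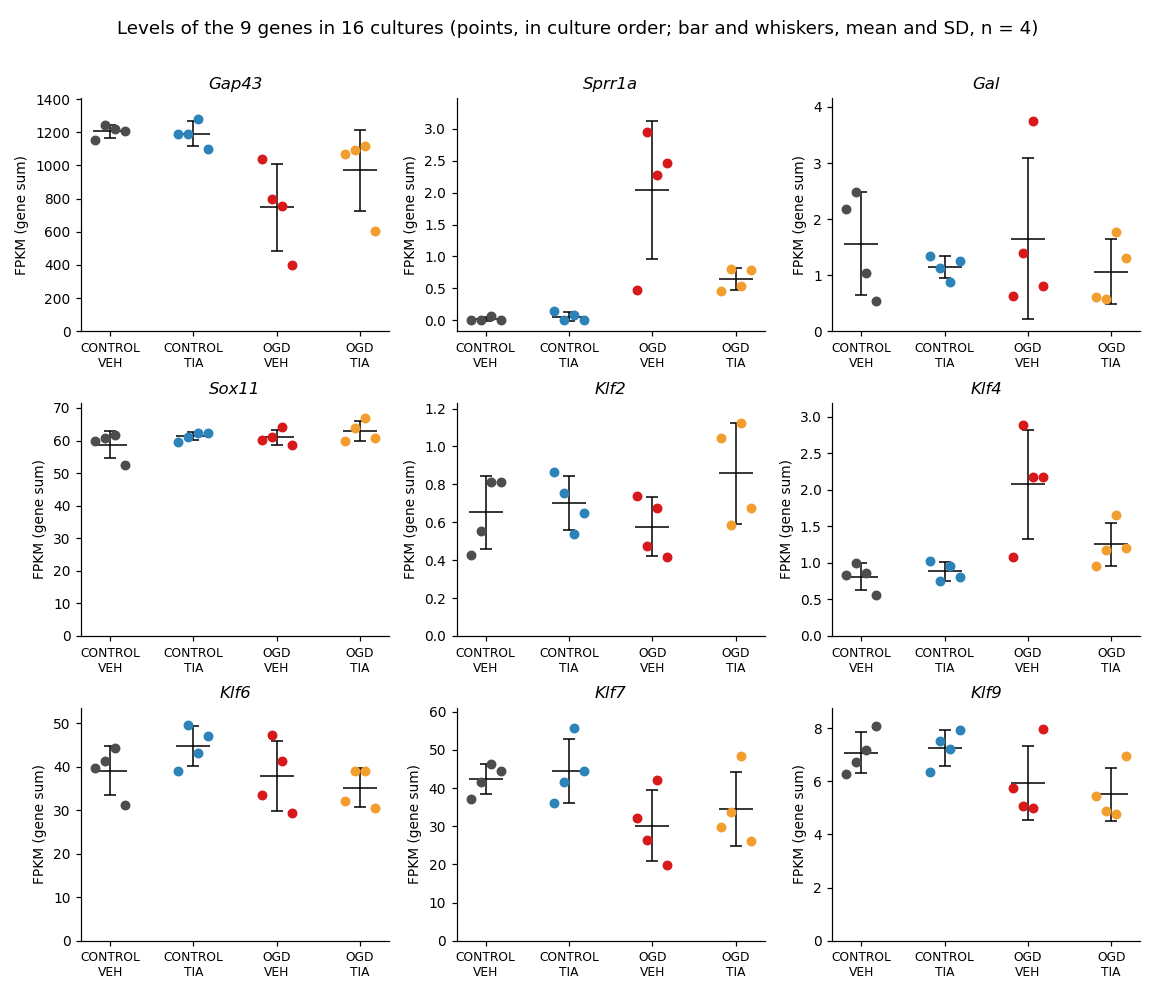
FPKM of the 9 genes (vertical axes, linear, each including 0) in the cultures of the 4 groups (horizontal axes). Points are the 4 cultures of a group in the order of their numbers, and bars with whiskers give the mean and SD. *Sprr1a* lay at 0 to 0.139 FPKM in the CONTROL cultures and at 0.463 to 2.96 FPKM in the OGD cultures, and *Gap43* was lowest in cultures 12 and 16.

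The first comparison asked how OGD without drug changed these genes. Only *Sprr1a* was called a differentially expressed gene (DEG), which needed a p adjusted by Benjamini-Hochberg (padj) no higher than 0.05 and a log2 fold change of 1 or more in either direction, by limma on log2(FPKM + 0.1). That was 1 of 9 genes, while 4.09% of the 16346 genes tested were DEGs (2.4% higher and 1.68% lower in OGD-VEH). *Klf4* was higher and *Gap43* lower in each OGD-VEH culture than in any CONTROL-VEH culture, but neither passed the adjusted test. Of the genes tested, 12.7% lay wholly higher and 9.95% wholly lower in this way. Each of the 9 genes reached the limit of 0.5 FPKM in its mean over the 8 cultures and was tested, *Sprr1a* only through the OGD-VEH cultures, so that its passing this limit already implied a difference.

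*Sprr1a*, an intracellular protein that promotes outgrowth in injured sensory neurons (gene on chromosome 3, 92483952 to 92485895, minus strand, GRCm38), was listed at 0 in CONTROL-VEH cultures 1, 2 and 4 and at 0.071 FPKM in culture 3. In the OGD-VEH cultures 9 to 12 it reached 0.477, 2.96, 2.28 and 2.46 FPKM. The value of culture 3 corresponds to about 1.3 reads and those of cultures 9 to 12 to about 7.1, 50.9, 37.1 and 38.4 reads, so that culture 9 was well below the other OGD-VEH cultures and yet above each CONTROL-VEH culture. *Sprr1a* rose by 3.99 ± 0.58 (log2 fold change and standard error, padj = 0.0281 by limma, exact permutation p = 0.0286, which is the smallest that 4 against 4 cultures allow). This fitted fold change depends on the constant added, since a pseudocount of 1 gave 1.49 and one of 0.01 gave 6.65, and it is no bound on the true fold. The call was kept without culture 9 (padj = 0.00187 by limma) and lost without any other single culture, with padj from 0.0568 to 0.0999 by limma, and without the limit on low values (padj = 0.0512 by limma). Without any culture other than 9, its log2 fold change was still 3.73 to 4.18. In each of those fits 71 or fewer of all genes were called, in place of 668.

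With TIA, *Sprr1a* was at 0.139, 0, 0.086 and 0 FPKM in the CONTROL-TIA cultures 5 to 8 and at 0.463, 0.807, 0.542 and 0.791 FPKM in the OGD-TIA cultures 13 to 16. The groups did not overlap (9.51% of the 16242 genes tested lay wholly higher in OGD-TIA), but the mean over the 8 cultures was under the limit of 0.5 FPKM. Fitted without that limit, the difference was 2.34 ± 0.36 on the log2 scale with a padj of 0.121 by limma. Cultures 10 to 12 of OGD-VEH exceeded each OGD-TIA culture, while culture 9 lay within the OGD-TIA range. The difference between OGD-TIA, at 0.651 ± 0.174 FPKM (SD, n = 4), and OGD-VEH, at 2.04 ± 1.08 FPKM (SD, n = 4), was -1.30 ± 0.53 on the log2 scale and did not pass the adjusted test (padj = 0.551 by limma, exact permutation p = 0.114). Array quality weights, which let cultures that fit the model poorly count for less, gave -1.69 with a padj of 0.0463 by limma. Across all 16 cultures, with the drug arms averaged, *Sprr1a* rose by 3.16 ± 0.35 on the log2 scale (padj = 0.000406 by limma) and was called with each culture left out in turn. Here too it reached the limit of 0.5 FPKM only through the OGD cultures, so that being tested already implied a difference.

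The promoters of *Sprr1a*, *Klf4* and *Klf9* are shown as examples that differ in the letters before their start. The motifs marked were chosen for each gene. The windows come from RefSeq on GRCm38.p6, where 8 of the 9 genes had an entry, *Gap43* being the other. They are printed 5′ to 3′ on the gene's strand up to the base before the transcripts begin, *Sprr1a* at chr3:92485896-92486131 (minus strand), *Klf4* at chr4:55532476-55532725 (minus strand) and *Klf9* at chr19:23140976-23141225 (plus strand). Capitals mark the AP-1 letters TGANTCA in *Sprr1a*, GC boxes (GGGCGG on either strand, the first pair sharing a base) in *Klf4*, and AP-1 and STAT letters (TTCNNNGAA) in *Klf9*.
Sprr1a: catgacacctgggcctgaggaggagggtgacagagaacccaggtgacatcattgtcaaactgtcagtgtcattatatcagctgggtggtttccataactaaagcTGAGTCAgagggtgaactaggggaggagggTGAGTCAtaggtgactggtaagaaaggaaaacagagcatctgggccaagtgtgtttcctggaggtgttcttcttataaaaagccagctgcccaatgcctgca
Klf4: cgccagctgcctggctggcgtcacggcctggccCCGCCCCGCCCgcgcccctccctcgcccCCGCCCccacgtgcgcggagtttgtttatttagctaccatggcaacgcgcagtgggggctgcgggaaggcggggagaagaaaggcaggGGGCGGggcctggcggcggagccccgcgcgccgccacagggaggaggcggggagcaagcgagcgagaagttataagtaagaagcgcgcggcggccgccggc
Klf9: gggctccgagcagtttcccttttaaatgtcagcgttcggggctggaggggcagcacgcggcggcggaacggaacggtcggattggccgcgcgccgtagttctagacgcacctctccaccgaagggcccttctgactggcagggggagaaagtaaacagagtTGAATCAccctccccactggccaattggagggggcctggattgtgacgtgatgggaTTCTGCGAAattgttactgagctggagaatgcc
In the 250 bases before the RefSeq start, searched on both strands, *Sprr1a* held the AP-1 letters at 146 and 116 bases before the start and no GC box, whereas *Klf4* held 4 GC boxes and no AP-1 letters. *Klf9* held the AP-1 letters 89 and the STAT letters 33 bases before its start. AP-1 letters stood in 2 of the 8 genes with an entry and in 6.75% of all 32851 promoters, STAT letters in 1 and in 7.02%, and a GC box in 6 and in 32.7%. The letters CACCC, which KLFs bind and which overlap AP-1 matches in *Sprr1a* and *Klf9*, stood in 6 of the 8 and in 52.0% of all promoters, and the cyclic AMP response element TGACGTCA in 0 of the 8 and in 1.55%. These are matches of letters and do not show that a factor was bound.

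*Gap43*, the growth cone protein (chromosome 16, 42248442 to 42340651, minus strand), was the most abundant of the 9 genes. The CONTROL-VEH cultures 1 to 4 had 1151, 1246, 1219 and 1210 FPKM and the OGD-VEH cultures 9 to 12 had 1039, 795, 754 and 400 FPKM. The groups did not overlap, and the OGD-VEH cultures spread far more than the controls. The means were 1207 ± 40.0 and 747 ± 263 FPKM (SD, n = 4 each), a log2 fold change of -0.77 ± 0.25 that did not pass the adjusted test (padj = 0.0740 by limma, exact permutation p = 0.0286). It did so with array quality weights (padj = 0.0073 by limma), with all 16 cultures in one fit (padj = 0.0283 by limma) and without culture 9 (padj = 0.0187 by limma). Without culture 12, the lowest, the log2 fold change was -0.50 and the padj 0.0639 by limma.

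With TIA, *Gap43* had 1192, 1191, 1282 and 1097 FPKM in cultures 5 to 8 of CONTROL-TIA. The OGD-TIA cultures 13 to 16 had 1070, 1093, 1116 and 602 FPKM. Cultures 13 to 15 lay within or close to the control range and culture 16 far below it, so the log2 fold change of -0.34 ± 0.19 (padj = 0.361 by limma) became -0.12 without culture 16. With the arms averaged, *Gap43* fell by 0.55 ± 0.17 on the log2 scale (padj = 0.0228 by limma), and padj stayed at or under 0.0425 with each culture left out in turn. Both isoforms of the table were lower. The protein-coding one (1420 bases) averaged 548 FPKM in the CONTROL-VEH and 318 FPKM in the OGD-VEH cultures. A processed transcript of 760 bases, which is not annotated as coding, averaged 659 and 429 FPKM and held 50.9 to 63.3% of the *Gap43* value in a culture. Tested by itself over both drug arms, the coding isoform was at -0.57 on the log2 scale (padj = 0.104 by limma over all isoforms), and the processed transcript fell by 0.55 (padj = 0.0417 by limma over all isoforms).

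The level of *Gap43* moved with the sum of the neuron markers. Summed over *Rbfox3*, *Map2*, *Snap25*, *Syt1* and *Nefl*, all 5 of which were detected in each group, these were at 999 to 1156 FPKM in CONTROL-VEH and at 616 to 928 FPKM in OGD-VEH, and at 1045 to 1179 FPKM in CONTROL-TIA and 743 to 1020 FPKM in OGD-TIA. Cultures 12 and 16, the lowest for *Gap43*, were also the lowest of their groups for this sum. *Map2*, its largest part, went from a mean of 607 FPKM in CONTROL-VEH to 531 FPKM in OGD-VEH. *Snap25* went from 285 to 156, *Syt1* from 101 to 40.2, *Rbfox3* from 48.9 to 26.4 and *Nefl* from 42.7 to 28.3 FPKM. *Gap43* per unit of the marker sum was 1.05 to 1.18 in CONTROL-VEH and 1.12, 0.965, 0.996 and 0.649 in cultures 9 to 12, so the groups overlapped on this scale. Sums over the 5 astrocyte markers were at 424 to 647 FPKM in CONTROL-VEH and 575 to 1466 FPKM in OGD-VEH, over the 5 markers of neural progenitors at 72.0 to 112 and 103 to 342 FPKM, and over the 5 markers of the oligodendrocyte lineage at 53.1 to 60.0 and 55.3 to 242 FPKM. The 5 markers of fibroblasts and mural cells summed to 11.6 to 17.2 and 6.87 to 11.03 FPKM. In bulk RNA, fewer neurons and less RNA per neuron cannot be told apart, and the part of cell composition in the values of the 9 genes was not tested.

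**Figure D2:**
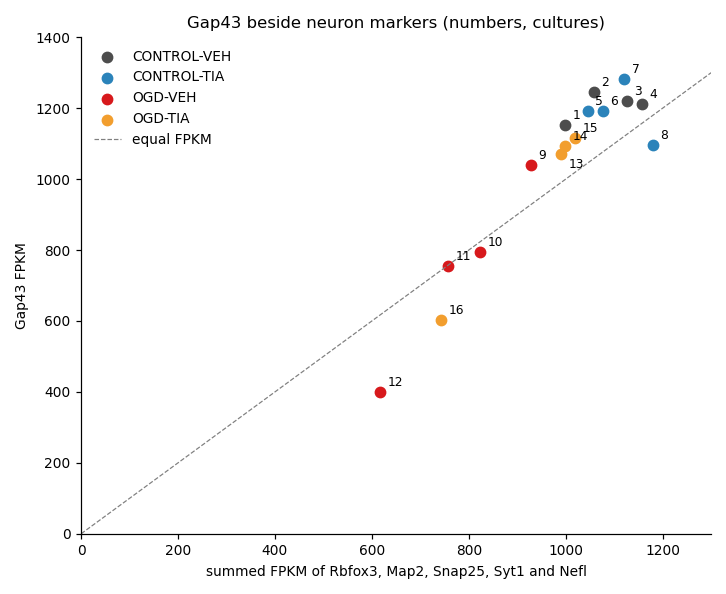
*Gap43* (vertical axis, FPKM) against the summed FPKM of 5 neuron markers (horizontal axis) in the 16 cultures, numbered and colored by group, with a dashed line where both are equal. The OGD cultures 12 (400 and 616 FPKM) and 16 (602 and 743 FPKM) are the lowest on both axes, and the 8 CONTROL cultures lie at the upper right.

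*Sox11*, a transcription factor needed for axon growth of developing and injured neurons (chromosome 12, 27334264 to 27342574, minus strand), was the steadiest of the 9 genes. It lay at 52.6 to 61.8 FPKM in CONTROL-VEH (median 60.3), 59.7 to 62.4 in CONTROL-TIA (median 61.7), 58.6 to 64.1 in OGD-VEH (median 60.7) and 60.0 to 66.8 in OGD-TIA (median 62.3), and the groups overlapped throughout. The log2 fold change of OGD-VEH against CONTROL-VEH was 0.06 ± 0.10 (padj = 0.704 by limma), and its sign turned with median-ratio scaling (-0.03), which brings the median of all genes tested from 0.10 to 0.02. Per unit of the neuron marker sum, *Sox11* was at 0.0455 to 0.0600 in CONTROL-VEH and at 0.0650 to 0.0951 in OGD-VEH, without overlap. The marker sum itself did not overlap (999 to 1156 against 616 to 928 FPKM), so a gene with a steady level can separate on this scale. The share of all genes that did so was not taken, and no rise of *Sox11* is read from it.

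*Gal*, the precursor of galanin (chromosome 19, 3409915 to 3414544, minus strand), varied as much within groups as between them. It had 2.19, 2.49, 1.04 and 0.537 FPKM in CONTROL-VEH cultures 1 to 4 and 0.638, 1.40, 3.74 and 0.814 FPKM in OGD-VEH cultures 9 to 12. The highest OGD-VEH culture, 11, and the lowest CONTROL-VEH culture, 4, rest on about 50.1 and 7.0 reads. The log2 fold change was -0.04 ± 0.62 (padj = 0.970 by limma) and became 0.34 with array quality weights, so no direction can be given. With TIA it was -0.23 ± 0.36 (padj = 0.751 by limma).

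Among the KLFs, the growth-limiting *Klf4* and *Klf9* took opposite signs after OGD. *Klf4*, also known as a pluripotency factor (chromosome 4, 55527143 to 55532466, minus strand), had 0.838, 0.992, 0.859 and 0.563 FPKM in CONTROL-VEH cultures 1 to 4. In OGD-VEH cultures 9 to 12 it had 1.08, 2.89, 2.17 and 2.17 FPKM, and culture 9 was again the nearest to the controls. The log2 fold change was 1.20 ± 0.33, 2.56 times as a ratio of mean FPKM, and just missed the adjusted test (padj = 0.0528 by limma, exact permutation p = 0.0286). It passed with array quality weights (padj = 0.00445 by limma), with all 16 cultures in one fit (padj = 0.00846 by limma), with isoforms weighted by length (padj = 0.0306 by limma) and without culture 9 (padj = 0.00729 by limma). These were 3 of 8 alternative settings with all cultures kept, and the others gave a padj of up to 0.111 by limma. Without any culture other than 9, padj was 0.0921 to 0.138 by limma.

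With TIA, *Klf4* had 1.03, 0.751, 0.952 and 0.807 FPKM in CONTROL-TIA and 0.963, 1.18, 1.66 and 1.20 FPKM in OGD-TIA. The groups overlapped by culture 13, and the log2 fold change was 0.44 ± 0.21 (padj = 0.293 by limma). The interaction, by which the OGD effect with TIA is set against the one without, was -0.76 ± 0.38 on the log2 scale and did not pass the adjusted test (padj = 0.722 by limma). Averaged over the arms, *Klf4* rose by 0.82 ± 0.19 (padj = 0.00703 by limma), with a padj of at most 0.0164 by limma when each culture was left out in turn. Its value came from the isoform of 3029 bases in each culture but 15, the highest of OGD-TIA, where an isoform of 522 bases held 15.3% (0.254 FPKM, about 2.9 reads) and the main one 1.41 FPKM. That isoform was listed at 0 in the other 15 cultures, and the isoform of 859 bases in all 16.

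*Klf9*, a factor induced by thyroid hormone and glucocorticoids (chromosome 19, 23141226 to 23168134, plus strand), had 6.29, 6.73, 7.19 and 8.09 FPKM in CONTROL-VEH and 5.76, 5.08, 4.97 and 7.97 FPKM in OGD-VEH. Cultures 9 to 11 were below each control, whereas culture 12 lay near the highest control, culture 4. Cultures 4 and 12 are each the last by number in their group. With TIA it had 6.35, 7.53, 7.20 and 7.95 FPKM in CONTROL-TIA and 5.44, 4.88, 4.78 and 6.95 FPKM in OGD-TIA, again with 3 cultures below the controls. The log2 fold changes of -0.27 ± 0.18 without and -0.40 ± 0.14 with TIA did not pass (padj = 0.318 and 0.200 by limma). The average over both drug arms showed that *Klf9* fell by 0.33 ± 0.11 on the log2 scale (padj = 0.0365 by limma), but padj stayed under 0.05 only when culture 1, 5, 9, 12 or 16 was left out, reached up to 0.0734 without any of the other 11 cultures, and was 0.0667 without the limit on low values.

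The growth-promoting *Klf7* (chromosome 1, 64029447 to 64122282, minus strand) had 37.3, 41.5, 46.3 and 44.3 FPKM in CONTROL-VEH cultures 1 to 4. In OGD-VEH cultures 9 to 12 it had 32.2, 26.5, 42.0 and 19.9 FPKM, of which only culture 11 was within the control range. The log2 fold change was -0.54 ± 0.22 (padj = 0.117 by limma), and with TIA -0.38 ± 0.21 (padj = 0.336 by limma). With both drug arms averaged, *Klf7* fell by 0.46 ± 0.16 (padj = 0.0360 by limma), which was lost with array quality weights (padj = 0.0823 by limma), without the limit on low values (padj = 0.0674 by limma) and without any culture other than 1, 5, 9, 11 or 15, where padj reached 0.0754.

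The overlap of the *Klf7* groups came from a short isoform. The main isoform (7662 bases) had 36.5, 40.8, 41.5 and 35.7 FPKM in CONTROL-VEH and 29.6, 26.2, 25.4 and 19.8 FPKM in OGD-VEH, and the groups did not overlap, while 5.83% of the 53087 isoforms tested lay wholly lower in this way. With TIA it was at 35.8 to 43.0 FPKM in CONTROL-TIA and 24.9 to 33.3 FPKM in OGD-TIA, again apart, as were 3.81% of 52476 isoforms in the same direction. The isoform of 553 bases had 16.1 FPKM in culture 11 and 15.1 FPKM in culture 15, which raised these cultures, and 14.7 FPKM in culture 7 of CONTROL-TIA, while 10 of the 16 cultures had less than 0.4 FPKM of it. Tested by itself, the main isoform had a log2 fold change of -0.62 (padj = 0.132 by limma over all isoforms) in OGD-VEH and fell by 0.51 over both drug arms (padj = 0.00791 by limma over all isoforms). With isoforms weighted by length, *Klf7* as a gene fell by 0.62 in OGD-VEH against CONTROL-VEH (padj = 0.0257 by limma).

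**Figure D3:**
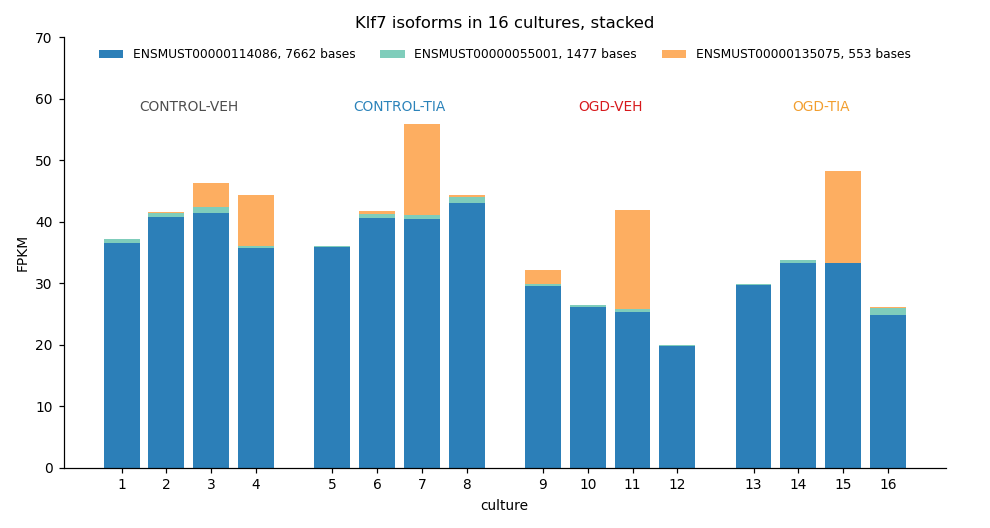
FPKM of the 3 *Klf7* isoforms (vertical axis, stacked) in the 16 cultures (horizontal axis, by group). The isoform of 7662 bases is at 35.7 to 43.0 FPKM in the 8 CONTROL cultures and at 19.8 to 33.3 FPKM in the 8 OGD cultures, and the isoform of 553 bases adds 14.7 to 16.1 FPKM in cultures 7, 11 and 15.

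*Klf6*, the other growth-promoting factor (chromosome 13, 5861482 to 5870394, plus strand), had 39.8, 41.3, 44.2 and 31.1 FPKM in CONTROL-VEH and 33.5, 47.4, 41.3 and 29.3 FPKM in OGD-VEH, with a log2 fold change of -0.06 ± 0.18 (padj = 0.836 by limma) that turned to 0.05 with array quality weights. With TIA, 39.0, 49.6, 43.3 and 47.1 FPKM in CONTROL-TIA stood against 32.2, 39.1, 39.0 and 30.6 FPKM in OGD-TIA, nearly apart, with a log2 fold change of -0.35 ± 0.12 (padj = 0.193 by limma). An isoform of 799 bases annotated as a retained intron, at 8.77 to 19.2 FPKM over the 16 cultures, made up 23.8 to 38.7% of the *Klf6* value. *Klf2* (chromosome 8, 72319033 to 72321656, plus strand) lay at 0.428 to 0.814 FPKM in CONTROL-VEH, 0.536 to 0.865 in CONTROL-TIA, 0.416 to 0.740 in OGD-VEH and 0.588 to 1.12 in OGD-TIA, and no group was apart from another. Its value rests on about 15.4 to 48.4 reads per culture.

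**Figure D4:**
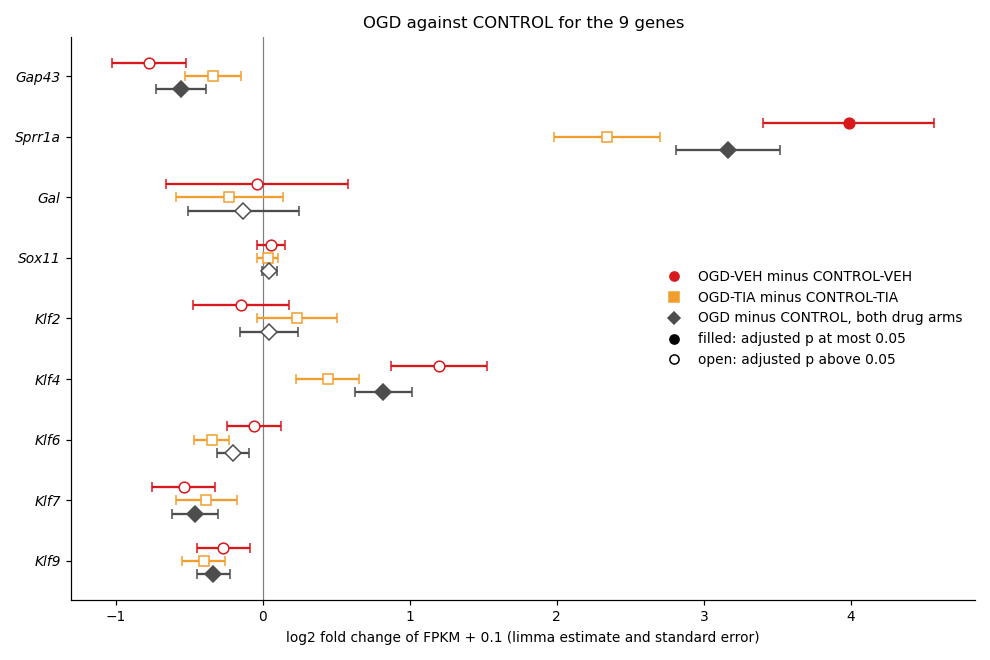
Log2 fold changes of FPKM + 0.1 (horizontal axis) for the 9 genes (vertical axis), with OGD-VEH against CONTROL-VEH in red, OGD-TIA against CONTROL-TIA in orange and the mean of both in grey. Whiskers are standard errors of limma, filled symbols have a padj of at most 0.05, and *Sprr1a* with TIA was fitted without the limit on low values. *Sprr1a* is filled at 3.99 without TIA, and 5 genes are filled over both drug arms.

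Over both drug arms, 5 of the 9 genes had a padj of at most 0.05 by limma, 2 higher (*Sprr1a*, *Klf4*) and 3 lower (*Gap43*, *Klf7*, *Klf9*), while 32.5% of the 16313 genes tested did so (18.8% higher and 13.7% lower). *Sprr1a* was the 1 DEG among them, against 4.8% of the genes tested (2.79% higher and 2.01% lower), but it passed the limit on low values only through the OGD cultures. In OGD-TIA against CONTROL-TIA, 0 of the 8 genes tested and 0 of all 16242 genes tested (0.0%) were called, although 3174 of them (19.5%) had an unadjusted p under 0.05 by limma and array quality weights called 80. *Klf6* and *Klf9* were among the 3174 genes, with unadjusted p of 0.0195 and 0.0226 by limma, but not among those called with array quality weights.

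The next comparisons asked what TIA did, first without OGD. In CONTROL-TIA against CONTROL-VEH, 0 of 16170 genes were called (0.0%), 621 (3.84%) had an unadjusted p under 0.05 by limma, and the 8 genes tested had a padj of 0.999 each, with log2 fold changes from -0.22 for *Gal* to 0.20 for *Klf6*. After OGD, 0 of 16351 genes were called between OGD-TIA and OGD-VEH (0.0%), 1293 (7.91%) had an unadjusted p under 0.05 by limma, and array quality weights called 408. Here *Gap43* was at 0.41 ± 0.31, *Klf2* at 0.49 ± 0.31, *Klf4* at -0.64 ± 0.31 and *Klf7* at 0.21 ± 0.26 (log2 fold changes and standard errors, padj = 0.551 or higher by limma). The interaction, which tests whether TIA changed the OGD effect, called 0 of 16313 genes (0.0%), with 988 (6.06%) at an unadjusted p under 0.05 by limma and 101 called with array quality weights. It was -1.65 ± 0.71 for *Sprr1a* (unadjusted p = 0.0355, padj = 0.722 by limma) and 0.44 ± 0.34 for *Gap43* (padj = 0.733 by limma), so the OGD effect was not shown to differ with TIA.

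Genes related to the 9 by function were followed in 5 lists, written from general knowledge with earlier results of these data known. Their counts beside the shares of all genes describe the lists and are no independent test. Of the other KLFs, 9 of 12 passed the limit on low values, and *Klf3*, a repressor of the family, was the 1 DEG in OGD-VEH against CONTROL-VEH, with means of 9.70 FPKM before and 26.0 FPKM after OGD (log2 fold change 1.35 ± 0.29, padj = 0.0380 by limma). The median log2 fold change of the other KLFs was 0.05, beside 0.10 for all genes tested. Among 15 transcription factors linked to regeneration, 4 were DEGs, all higher, beside 2.4% of all genes tested, and the median was 0.79. Of these 4, *Atf3* and *Cebpd* had CONTROL-VEH means under 0.5 FPKM and passed the limit on low values only through the OGD-VEH cultures, so that for them passing already implied a difference. *Atf3*, a stress-induced partner of Jun proteins, rose from 0.287 to 2.62 FPKM (2.54 ± 0.53, padj = 0.0367 by limma). *Cebpd* (2.04 ± 0.39, padj = 0.0340 by limma), *Cebpb* (1.17 ± 0.27, padj = 0.0421 by limma) and *Stat3* (1.08 ± 0.23, padj = 0.0373 by limma), which carry cytokine signals to the nucleus, rose as well. In the same cultures the astrocyte marker sum went from 424 to 647 FPKM in CONTROL-VEH to 575 to 1466 FPKM in OGD-VEH, and those of progenitors and of the oligodendrocyte lineage were higher as given for *Gap43*. The part of these cells in the values of this list and of the injury-induced genes was not tested.

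Of 23 growth cone and axon growth proteins, which share their role with *Gap43*, 2 were DEGs higher and 3 lower in OGD-VEH, and by padj alone 2 were higher and 7 lower. Of all genes tested, 8.44% passed by padj alone, 4.99% higher and 3.45% lower. The 2 that rose, *Cd44*, a hyaluronan receptor (3.22 ± 0.50, padj = 0.0294 by limma), and *Itga7*, a laminin receptor subunit (1.74 ± 0.42, padj = 0.0448 by limma), are receptors for the extracellular matrix that glial cells also carry. *Map1b*, a microtubule-binding protein of growing axons, fell from 661 to 192 FPKM (log2 fold change -1.86 ± 0.31, padj = 0.0336 by limma), and the adhesion molecules *Chl1* (-1.20 ± 0.30, padj = 0.0480 by limma) and *Cntn2* (-1.06 ± 0.26, padj = 0.0461 by limma) fell too. The median of the list was -0.69, and over both drug arms 15 of the 23 were lower and 2 higher by padj, beside 13.7% and 18.8% of all genes tested. The neuron marker sum was lower and the astrocyte marker sum higher in the same cultures, as given for *Gap43*.

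Of 24 other peptides, receptors and stress genes that injured neurons induce, 14 passed the limit on low values and 6 were DEGs, all higher, beside 2.4% of all genes tested. *Timp1*, *Plaur* and *Anxa1* (0.336, 0.107 and 0.351 FPKM in CONTROL-VEH) passed that limit only through the OGD-VEH cultures and had to differ, which leaves 3 DEGs free of this. *Timp1*, a metalloproteinase inhibitor, rose from 0.336 to 6.52 FPKM (4.13 ± 0.61, padj = 0.0281 by limma). *Plaur*, the urokinase receptor (2.90 ± 0.55, padj = 0.0339 by limma), *Csf1*, a cytokine of macrophages and microglia (2.35 ± 0.45, padj = 0.0339 by limma), *Hspb1*, a small heat shock protein (2.78 ± 0.55, padj = 0.0347 by limma), and *Gadd45a*, a DNA damage response gene (1.10 ± 0.27, padj = 0.0447 by limma), rose with it. The neuropeptide precursors tested took the other sign without passing, with *Npy* at -0.91 ± 0.30 (padj = 0.0779), *Vip*, which passed the limit only through CONTROL-VEH, at -1.18 ± 0.40 (padj = 0.0827), *Nts* at -1.07 (padj = 0.150) and *Adcyap1* at -0.57 (padj = 0.417 by limma). These were named after their values were seen. Averaged over the drug arms, *Npy*, neuropeptide Y, was a DEG and fell by 1.09 ± 0.23 on the log2 scale (padj = 0.00496 by limma). Of 18 inhibitors of axon growth, 17 were tested and 0 were DEGs (*Ptprf*, a receptor phosphatase, at -0.43 ± 0.11 with padj = 0.0482, and *Plxna1*, a semaphorin receptor, at -0.58 ± 0.17 with padj = 0.0620 by limma), with a median of -0.28. Averaged over the drug arms, *Rtn4rl2*, which encodes a Nogo receptor homolog, was a DEG at -1.06 ± 0.32 (padj = 0.0219 by limma). By padj alone in that average, where 18.8% of all genes tested were higher and 13.7% lower, 3 of 9 other KLFs were higher and 1 lower, 8 and 2 of the 15 regeneration transcription factors, 6 and 2 of the 14 injury-induced genes and 1 and 5 of the 17 inhibitors. The counts of the KLFs (4 of 9) and of the inhibitors (6 of 17) were near the 32.5% of all genes. Among the regeneration and injury-induced genes tested, *Atf3*, *Cebpd*, *Timp1*, *Plaur*, *Anxa1* and *Lif* reached the limit on low values only through the OGD cultures. *Vip* reached it only through the CONTROL cultures. For these genes, being tested already implied a difference, so the counts of both lists cannot be read against the share of all genes. In the comparisons of OGD-TIA with CONTROL-TIA, of TIA with vehicle and in the interaction, 0 genes of these lists were called, as was so for all genes tested.

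**Figure D5:**
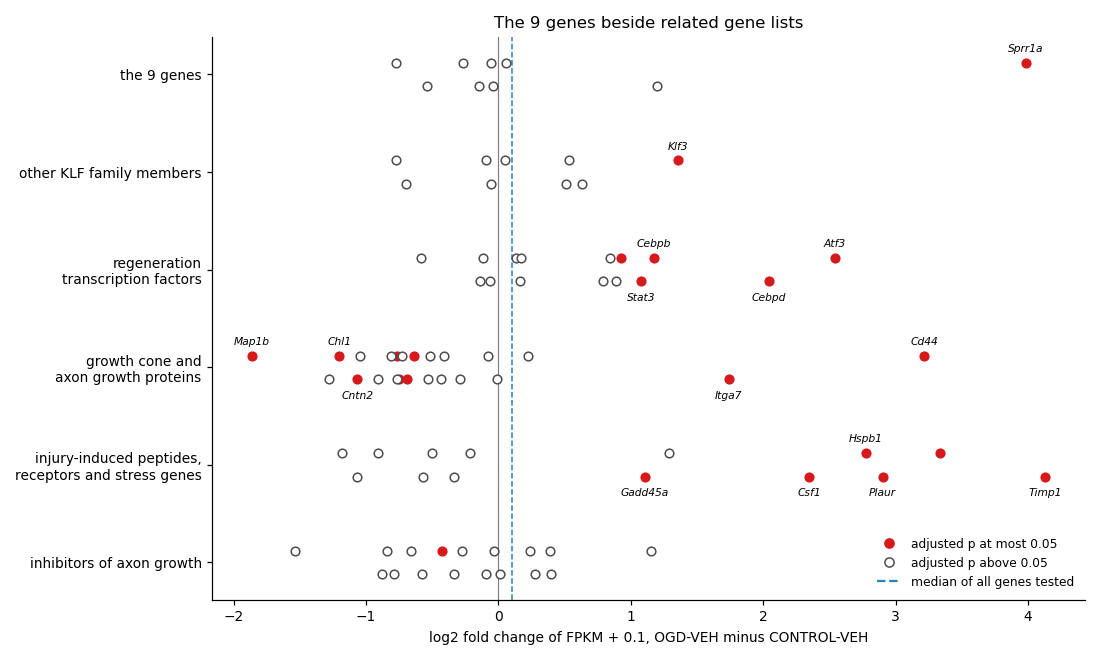
Log2 fold changes of FPKM + 0.1 in OGD-VEH against CONTROL-VEH (horizontal axis) for the 9 genes and 5 related lists (vertical axis), 1 point a gene tested. Red points have a padj of at most 0.05 by limma, up to 5 DEGs of each list are named, and the dashed line is the median of all genes tested (0.10). Growth cone proteins lie mostly below 0, with *Map1b* at -1.86, and the regeneration transcription factors mostly above it.

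As a description of likeness, the gene whose log2(FPKM + 0.1) correlated most with each of the 9 was sought among 13166 protein-coding genes over the 16 cultures, which share the group differences and, within a group, the cell composition of a culture. For *Gap43* this was *Dact2* (Pearson r = 0.991), for *Sprr1a* *Ccdc86* (r = 0.986), for *Klf9* *Slc39a12* (r = 0.952) and for *Klf4* *Klhl21* (r = 0.943). It was *Dip2c* for *Klf6* (r = 0.877), *Gorasp2* for *Sox11* (r = 0.865), *Prelid3a* for *Klf2* (r = 0.776) and *Srsf11* for *Gal* (r = 0.767). Among the 9 genes themselves, *Sprr1a* and *Klf4* were most alike (r = 0.903), *Gap43* and *Klf7* followed (r = 0.794), and *Gap43* and *Sprr1a* were the most opposed (r = -0.748).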

How the data were processed

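Stranded libraries from the RNA of 16 mouse PNCs (4 per group) gave single-end reads of 50 bases. The deposited values are FPKM per isoform, which the authors obtained by mapping reads to GRCm38 with STAR (Ensembl release 92), estimating isoforms with eXpress and scaling libraries by TMM; the unit was taken from the name of the table. Of 135276 lines, 74 without an identifier (0.0507% of summed FPKM) were left out. Isoform FPKM were summed per gene symbol, and types and positions were taken from GENCODE M21, where 99.82% of isoforms were found. Isoforms may be misassigned where they share sequence.

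Depth was estimated from the smallest steps in the values of 17546 single-isoform genes, so read numbers are approximate and cover no replicate error. Genes whose mean over the cultures of a comparison reached 0.5 FPKM were tested on log2(FPKM + 0.1) with limma 3.58.1 in R 4.3.3 (empirical Bayes with trend, Benjamini-Hochberg over all genes tested). The DESeq2 test of the authors needs read counts, which were not used here. Single genes were also tested by two-sided exact permutation over the 70 assignments of 8 cultures, for which the smallest p is 0.0286. The comparison over both drug arms averages both OGD effects and shares their cultures. Procedures were checked on simulated data.

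The 9 genes, the related lists and the marker lists were chosen with earlier results of these data known, and from general knowledge. Named are the 9 genes, at most 5 DEGs of each list by p (the 2 with the smallest p where there was none), and the most correlated gene of each, of which 1 is not reported here. Alternatives were the pseudocount, the limit on low values, array quality weights, median-ratio scaling, length weighting, robust empirical Bayes, a single fit of all cultures and leaving out each culture; testing each isoform by itself was chosen after seeing the data. Promoters came from RefSeq (GRCm38.p6). Other software was Python 3.11.15, numpy 2.4.6, pandas 2.3.3 and matplotlib 3.10.9.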

Additional observations from a re-analysis of the deposited data

Results flagged for a closer look

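In 2 of 36 groups of 4 cultures examined (9 genes in 4 groups), 1 culture stood apart from the other 3 by more of the range of the group than the critical value of Dixon's test allows. Chance gives this in about 1 in 20 groups. *Gap43* in OGD-TIA had a gap of 0.909 of the range between culture 16 (602 FPKM) and the next, culture 13 (1070 FPKM), and culture 16 also had the lowest neuron marker sum of its group (743 FPKM). *Sprr1a* in CONTROL-VEH had a gap of 1.0 of the range, because culture 3 was at 0.071 FPKM, about 1.3 reads, and the others were listed at 0.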

How the results depend on the processing

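In OGD-VEH against CONTROL-VEH, 668 genes were called, and 36 without the limit on low values, 1929 with array quality weights, 1119 with isoforms weighted by length, 1412 with all 16 cultures in one fit and 75 with each isoform by itself (chosen after seeing the data). Of the 9 genes, 1 was called, and 0 without the limit on low values (*Sprr1a* padj = 0.0512 by limma) and at a mean of at least 2 FPKM, where *Sprr1a* was not tested, but 2 (*Sprr1a* and *Klf4*) with array quality weights, length weighting or all 16 cultures in one fit. In OGD-TIA against CONTROL-TIA, the 0 genes called became 7, 80, 74, 1 and 16 in the same order of settings. In CONTROL-TIA against CONTROL-VEH they became 4 without the limit and 5 with isoforms, and in OGD-TIA against OGD-VEH 4 without the limit, 408 with array weights (1 of the 9 genes, *Sprr1a*) and 13 with isoforms. The interaction gave 3 without the limit and 101 with array weights. Over both drug arms, a pseudocount of 1 gave 393 genes in place of 783, and at a mean of at least 2 FPKM 0 of the 9 genes were called. The causes were not tested.

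Leaving out 1 culture gave 1 to 2186 genes in OGD-VEH against CONTROL-VEH, 2186 without culture 9 and 71 or fewer without any other, and 0 to 2 of the 9 genes. It gave 0 to 16 genes in OGD-TIA against CONTROL-TIA, 0 to 2 in OGD-TIA against OGD-VEH, 0 to 1 in the interaction and 548 to 1159 over both drug arms.

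Signs turned only for differences that had not passed the adjusted test. With array quality weights the log2 fold change of *Gal* was 0.341 in OGD-VEH and 0.0034 over both drug arms, and that of *Klf6* was 0.047 in OGD-VEH. With median-ratio scaling that of *Sox11* was -0.0257 in OGD-VEH, -0.0034 in OGD-TIA, 0.0223 in the interaction and -0.0146 over both drug arms, and that of *Klf2* was -0.0074 over both drug arms. Leaving out 1 culture turned the sign in OGD-VEH against CONTROL-VEH for *Gal* (-0.522 to 0.272) and *Klf6* (-0.176 to 0.0551). In CONTROL-TIA against CONTROL-VEH it did so for *Gap43* (-0.0576 to 0.0174), *Gal* (-0.610 to 0.0637), *Klf2* (-0.0467 to 0.217), *Klf4* (-0.0231 to 0.217), *Klf7* (-0.0591 to 0.152) and *Klf9* (-0.0161 to 0.104), and in OGD-TIA against OGD-VEH for *Gal* (-0.715 to 0.0783), *Klf6* (-0.203 to 0.0279) and *Klf9* (-0.212 to 0.0498). In the interaction it did so for *Gal* (-0.498 to 0.296), *Sox11* (-0.0518 to 0.0299), *Klf7* (-0.0272 to 0.330) and *Klf9* (-0.250 to 0.0122), and over both drug arms for *Gal* (-0.374 to 0.0226) and *Klf2* (-0.0357 to 0.116). Exact permutation tests on FPKM without the log kept their side of 0.05 for each gene. No paired analysis was made, because the cultures are numbered 1 to 16 and the labels tie none to a culture of another group. Some values followed the position within a group. *Klf9* was highest in the last culture of each group, at 8.09, 7.95, 7.97 and 6.95 FPKM in cultures 4, 8, 12 and 16. The *Klf7* isoform of 553 bases was highest in cultures 7, 11 and 15 of their groups, but in culture 4 of CONTROL-VEH. Whether cultures at the same position in their groups belong together was not tested. At this depth, values of *Sprr1a*, *Gal*, *Klf2* and *Klf4* rest on few reads, and differences smaller than the spread of 4 cultures were not detectable.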
